A study of Mus musculus with 31 samples.

Results

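The 4 genes of the microphthalmia (MiT) family of transcription factors, Mitf, Tfeb, Tfec and Tfe3, were described together with Gpnmb in RNA from mouse fibroblasts with and without Xist. Members were taken by gene symbol from the authors' table of exon reads, with the transcript of the highest total where a symbol had several, which gave 5 genes of 24470. The members were chosen by the log2 fold changes of Mitf and Gpnmb in these same libraries, which an earlier account had named, so their levels and fold changes are given as a description with no test. Tfeb, Tfec and Tfe3 were added as relatives of Mitf.

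The RNA came from differentiated dermal fibroblasts of female mice, of the cross CAST/Ei x 129/Sv/Jae, cultured without treatment. WT cells were compared with XaWT XiΔXist cells (line 1) and XaWT XiΔXist #2 cells (line 2), in which Xist is missing from the inactive X (Xi) and intact on the active X (Xa). Each of the 3 groups had 2 RNA libraries, which the protocol calls biological replicates. The labels do not say whether each line is 1 clone, and a line with 2 libraries cannot separate the deletion from other differences between cultures. Xist RNA spreads along the inactive X and shuts off most of its genes. Its level in CPM, counts scaled to a common library total, was 633 and 429 with Xist intact and 0.273 to 1.08 in the 4 deletion libraries, as the labels state.

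Library totals in the file header ran from 10.5 to 20.1 M, and the counts used here from 3.81 to 7.07 M. In each group the first library was the shallower. CPM values below are scaled with TMM factors. All 12 fibroblast markers passed the filter on low counts, and their summed level was 5279 to 6441 CPM among WT libraries, 4471 to 7120 in line 1 and 5247 to 6552 in line 2. In edgeR's quasi-likelihood test, described below, 1 of the 12 was called higher in each line and 0 lower. These were Dcn in line 1 (log2 fold change 2.19, adjusted p = 0.0215) and Fap in line 2 (2.74, adjusted p = 0.0371). Of all genes, 6.75% in line 1 and 1.73% in line 2 were called higher. Melanocyte markers summed to 7.20 to 10.4 CPM among WT libraries, 5.73 to 8.38 in line 1 and 6.34 to 7.51 in line 2, nearly all of it Pmel, with Tyrp1 and Dct at 0 in all libraries. Of 14 macrophage and osteoclast markers, Dcstamp and Tyrobp were at 0 throughout. The summed level of that list was 17.0 to 17.4 CPM among WT libraries, 17.8 to 32.1 in line 1 and 24.2 to 28.6 in line 2. Of its 2 tested markers, edgeR called 1 higher and 1 lower in line 1, and 0 in line 2. Endothelial markers summed to 7.33 to 8.64 CPM among WT libraries, 2.43 to 3.28 in line 1 and 5.92 to 6.78 in line 2, and keratinocyte, Schwann cell and adipocyte markers summed to at most 15.7, 8.34 and 3.24 CPM in any library. Of the endothelial, keratinocyte and Schwann cell lists 2 markers each were tested. Kdr, an endothelial marker, was called lower in both lines (edgeR adjusted p = 0.00445 and 0.0392). It stood at 5.81 and 7.20 CPM in the WT libraries, 0 in line 1, and 1.21 and 0.564 in line 2. Also called lower in line 1 were 1 keratinocyte and 1 Schwann cell marker. No endothelial, keratinocyte or Schwann cell marker was called higher. Of all genes, 7.55% in line 1 and 1.85% in line 2 were called lower. In bulk RNA, fewer cells of a type and less RNA per cell cannot be told apart.

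MiT factors are basic helix-loop-helix leucine zipper proteins that bind DNA as dimers with each other, at E-boxes with the core CACGTG or, in many pigment genes, the form CATGTG. When mTORC1 on the lysosome is active, TFEB and TFE3 are phosphorylated and kept in the cytoplasm, and in starved or stressed cells they enter the nucleus and switch on lysosome and autophagy genes through the CLEAR element. MITF is the master regulator of melanocytes and also acts in osteoclasts and mast cells, and TFEC is best known from macrophages. Gpnmb encodes a transmembrane glycoprotein of melanosomes, lysosomes and the cell surface, known as a target of MiT factors in melanocytes, macrophages and osteoclasts. RNA levels do not report where these proteins are in the cell.

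Promoter sequences are shown for Gpnmb and for the outer start sites of Mitf, the members with the widest ranges between groups. They come from RefSeq (GRCm38.p6, the mm10 assembly), as the 250 bases before each start, and all 5 members were matched, with 10 windows between them. Capitals mark motif matches. The Gpnmb window is chr6:49036268-49036517, the Mitf upstream window chr6:97806808-97807057 and the Mitf downstream window chr6:97991533-97991782, all on the plus strand. The downstream start is that of the melanocyte form of Mitf.
Gpnmb: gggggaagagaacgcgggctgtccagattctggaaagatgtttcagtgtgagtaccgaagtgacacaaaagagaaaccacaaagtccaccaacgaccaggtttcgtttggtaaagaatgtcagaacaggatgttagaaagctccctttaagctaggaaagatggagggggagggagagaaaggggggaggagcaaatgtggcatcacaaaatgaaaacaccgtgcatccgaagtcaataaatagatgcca
Mitf upstream: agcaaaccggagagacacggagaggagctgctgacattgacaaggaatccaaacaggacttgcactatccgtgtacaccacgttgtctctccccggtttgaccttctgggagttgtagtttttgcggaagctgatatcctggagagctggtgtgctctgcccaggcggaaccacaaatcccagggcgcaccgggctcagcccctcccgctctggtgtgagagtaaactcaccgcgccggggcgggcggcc
Mitf downstream: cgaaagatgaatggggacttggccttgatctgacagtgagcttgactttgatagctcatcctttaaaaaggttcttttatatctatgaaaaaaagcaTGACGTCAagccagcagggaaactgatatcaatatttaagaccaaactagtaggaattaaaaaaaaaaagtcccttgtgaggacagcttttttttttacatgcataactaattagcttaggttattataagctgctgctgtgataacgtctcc
Letters searched on both strands, over 250 bases before to 50 after each start, were the E-box core CACGTG, its pigment gene form CATGTG and the cAMP response element TGACGTCA, none of which contains another. The only match in the 10 windows was TGACGTCA before the downstream Mitf start, with its first base at -153. Of 32851 mouse promoter windows of this length, 7.15% held the first, 14.2% the second and 1.79% the third. A match is a description of the letters, and no match says only that they are not in these windows.

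Tfe3, on the X chromosome (mm10 chrX:7762661-7775202), gave the most RNA of the family. Its level was 183 and 169 CPM in the WT libraries, 194 and 167 in those of line 1, and 170 and 165 in those of line 2. The 3 groups overlapped. The log2 fold change was 0.04 in line 1 (SE 0.12, adjusted p = 0.89) and -0.07 in line 2 (SE 0.12, adjusted p = 0.912) in edgeR's quasi-likelihood test with Benjamini-Hochberg adjustment over 12910 genes. Line 2 minus line 1 was -0.11 (SE 0.12, adjusted p = 0.701).

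Tfeb (chr17:47737037-47792416), the factor best known for lysosome biogenesis, stood at 42.2 and 35.7 CPM in the WT libraries, 43.0 and 26.3 in those of line 1, and 43.1 and 44.1 in those of line 2. The low value was the second library of line 1, and the other 5 ran from 35.7 to 44.1 CPM, with both line 2 libraries just above both WT libraries. Neither line passed the test against WT in edgeR, with log2 fold changes of -0.18 in line 1 (SE 0.25, adjusted p = 0.731) and 0.17 in line 2 (SE 0.25, adjusted p = 0.888). Line 2 minus line 1 was 0.35 (SE 0.25, adjusted p = 0.497), and it passed the threshold, at 0.73, when line 1 replicate 1 was left out. Across all genes tested, 14.3% were called in line 1, 3.58% in line 2 and 12.6% between the lines (6.87% higher and 5.76% lower in line 2), at an adjusted p under 0.05.

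Mitf (chr6:97807058-98021358) was high in line 1 and low in the other groups. Its level was 11.6 and 9.44 CPM in the WT libraries, 55.4 and 54.5 in those of line 1, and 8.00 and 6.49 in those of line 2. Both line 1 libraries lay above all others by a wide margin, and both line 2 libraries lay just below both WT libraries. The group means were 10.5 ± 1.54 CPM for WT, 54.9 ± 0.677 for line 1 and 7.24 ± 1.07 for line 2 (SD, n = 2 each). Line 1 was thus 5.25-fold above WT (log2 fold change 2.39, SE 0.20), and line 2 stood at -0.54 (SE 0.22), against the same WT libraries. Over the alternative settings the value ranged from 2.251 to 2.529 in line 1 and from -0.70 to -0.39 in line 2. The reads behind these values numbered 46 and 59 in the WT libraries, 205 and 399 in those of line 1, and 33 and 46 in those of line 2.

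The table lists 3 Mitf transcripts, with starts at 97807058 (upstream), 97929817 (middle) and 97991783 (downstream) on chromosome 6. They share most exons, so their reads cannot be split, but the upstream total minus the downstream total gives the net of reads over exons that differ. In line 1 the upstream transcript had 205 and 399 reads and the downstream 147 and 329. In WT the upstream transcript had 46 and 58.5 reads and the downstream 30.5 and 43.5. In line 2 they had 32.5 and 46 against 26.5 and 34. The net was 15.5 and 15 reads in the WT libraries, 58 and 70 in those of line 1, and 6 and 12 in those of line 2. As a share of the upstream total it was 33.7% and 25.6% in the WT libraries, 28.3% and 17.5% in those of line 1, and 18.5% and 26.1% in those of line 2, and the groups overlapped. In read number the net was thus also larger in line 1, and which start was used was not tested.

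Tfec (chr6:16833381-16898441, minus strand) had a single read in the 6 libraries after rounding, in line 1 replicate 1, where the authors' value is 0.5. It did not pass the filter on low counts and was not tested. A count of 0 allows up to 0.758 and 0.480 CPM in the WT libraries (3 counts, for counting error only), and up to 0.409 in the deepest library, line 1 replicate 2.

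Gpnmb (chr6:49036518-49058182) was nearly absent from line 2. Its level was 89.4 and 68.2 CPM in the WT libraries, 120 and 59.1 in those of line 1, and 3.15 and 0.987 in those of line 2. Both line 2 libraries lay far below the other 4, while the line 1 libraries lay on either side of both WT libraries. Means were 78.8 ± 15.0 CPM for WT, 89.4 ± 42.9 for line 1 and 2.07 ± 1.53 for line 2 (SD, n = 2 each). Line 2 was 42.1-fold below WT (log2 fold change -5.40, SE 0.58), resting on 13 and 7 reads in line 2 against 354 and 426 in WT. Without line 2 replicate 1 the value was -6.29, and without line 2 replicate 2 it was -4.63. Against WT, line 1 stood at 0.17 (SE 0.40), which ranged from -0.42 to 0.61 when single libraries or settings were changed. Of the 14 markers of macrophages and osteoclasts, cells known to express Gpnmb, edgeR tested only Lyz2 and Cd14, which made up most of the summed level. Lyz2 stood at 11.4 and 12.2 CPM in WT against 15.5 and 17.6 in line 2 (adjusted p = 0.661), and Cd14 at 3.54 and 3.36 against 6.30 and 7.33 (adjusted p = 0.311). The other 12 were at or near 0 in WT and line 2, with Csf1r the highest of them at 2.54 CPM or less. In line 1 edgeR called Cd14 higher than in WT, at 10.8 and 19.9 CPM (adjusted p = 0.0132). It called Lyz2 lower there, at 4.9 and 1.9 CPM (adjusted p = 0.0307). The part of these markers in the result was not tested. The strand used in counting is not given, so reads of an overlapping gene on the other strand cannot be told apart from those of any member.

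**Figure D1:**
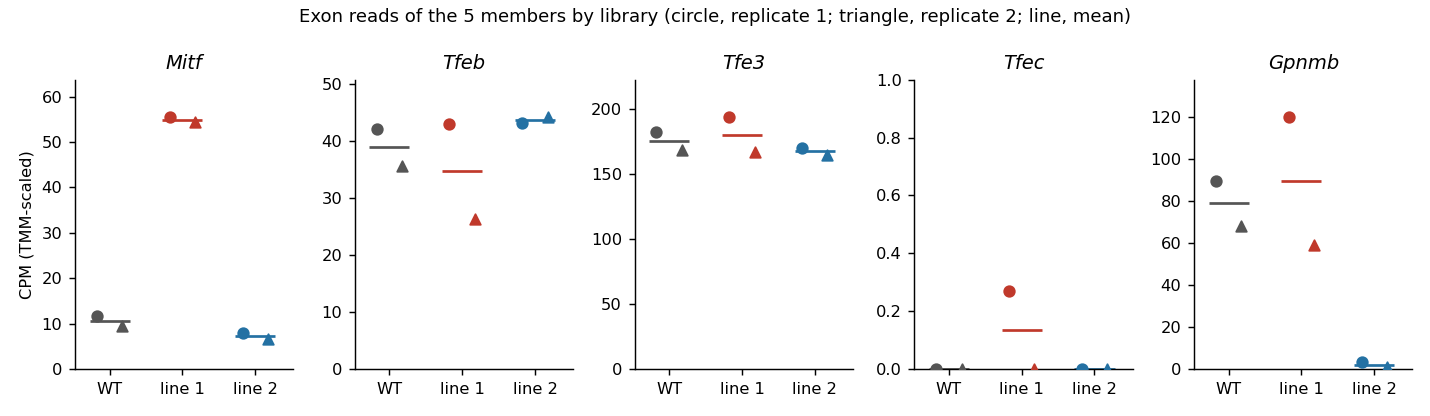
Level of each member in CPM (y axis, a scale of its own per gene) in the 2 libraries of WT, line 1 and line 2 (circle, replicate 1; triangle, replicate 2), with the group mean as a line. Mitf is near 55 CPM in line 1 and below 12 elsewhere, Gpnmb is below 4 CPM in line 2 and above 59 elsewhere, and Tfeb and Tfe3 overlap between line 1 and WT.

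Mitf and Gpnmb thus had unlike patterns over the 3 groups. In line 1, where Mitf was 5.25-fold above WT, the Gpnmb libraries overlapped WT. In line 2, where Gpnmb was 42.1-fold below WT, Mitf was 1.46-fold below WT, and neither Tfeb nor Tfe3 passed the test. These comparisons share the WT libraries. Mitf and Gpnmb were picked by these fold changes, so their patterns are a description. Whether any MiT factor had a part in the Gpnmb level was not tested.

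Levels of different genes were compared per kb of transcript, with lengths of 4889 bases for Mitf, 2331 for Tfeb, 3273 for Tfe3, 1778 for Tfec and 3797 for Gpnmb. In WT the order was Tfe3 (55.8 and 51.5 CPM per kb), Gpnmb (23.6 and 18.0), Tfeb (18.1 and 15.3) and Mitf (2.38 and 1.93). The Gpnmb and Tfeb ranges overlapped slightly, and all other neighbours were apart. In line 1 Tfe3 stood at 59.2 and 51.2 CPM per kb, and Gpnmb (31.5 and 15.6), Tfeb (18.4 and 11.3) and Mitf (11.3 and 11.1) followed. There Gpnmb overlapped Tfeb, and Tfeb reached down to the level of Mitf. In line 2 the order was Tfe3 (52.0 and 50.4), Tfeb (18.5 and 18.9), Mitf (1.64 and 1.33) and Gpnmb (0.830 and 0.260), with no overlap between neighbours.

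The summed level of the MiT family was 76.3 and 68.8 CPM per kb in the WT libraries, 89.1 and 73.6 in those of line 1, and 72.2 and 70.7 in those of line 2. Each line overlapped WT, and both line 1 libraries lay above both line 2 libraries. Mitf made up 3.12% and 2.81% of that sum in the WT libraries, 12.7% and 15.1% in those of line 1, and 2.27% and 1.88% in those of line 2. Tfe3 made up 73.2% and 74.9% in the WT libraries, 66.4% and 69.5% in those of line 1, and 72.1% and 71.3% in those of line 2. Tfeb held 15.4% to 26.8% over the 6 libraries. By RNA, Tfe3 was the main MiT factor in all 3 groups.

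**Figure D2:**
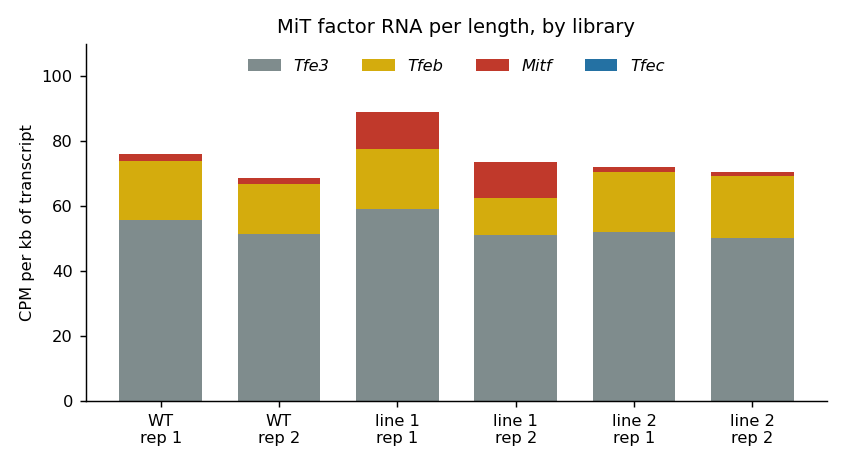
Stacked level of the MiT factors in CPM per kb of transcript (y axis, from 0) in each of the 6 libraries. Mitf is the thin top layer in WT and line 2 (at most 3.12% of the sum) and 12.7% and 15.1% in line 1, and Tfec is too low to be seen.

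Genes whose levels followed Mitf or Gpnmb most closely were ranked by the root mean square difference of log2 CPM over the 6 libraries. Values were centred on the WT mean. Candidates were 10134 well-measured genes, without predicted, small RNA and ribosomal protein genes. The ranking is a description over 3 groups, in which any gene that moved in 1 line only can come close. Usp2, a deubiquitinating enzyme, was nearest to Mitf at 0.113 log2 units, with 8.84 and 6.40 CPM in the WT libraries, 40.5 and 34.9 in those of line 1, and 5.09 and 4.93 in those of line 2. Next came Hspa1a (0.277), an inducible Hsp70 chaperone whose reads can be shared with its near-identical copy Hspa1b. It stood at 7.33 and 5.12 CPM in the WT libraries, 38.7 and 21.4 in those of line 1, and 5.33 and 3.95 in those of line 2. The others were Adamts7 (0.298), a secreted metalloprotease, Xdh (0.311), xanthine dehydrogenase, and Dcn (0.359), the matrix proteoglycan decorin. Dcn had 61.9 and 26.9 CPM in the WT libraries, 243 and 156 in those of line 1, and 28.6 and 19.7 in those of line 2.

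Distances from Gpnmb were larger. Cspg4, the NG2 proteoglycan, was nearest (1.01 log2 units), with 317 and 241 CPM in the WT libraries, 253 and 163 in those of line 1, and 12.1 and 23.8 in those of line 2. Ndrg2 (1.29) stood at 26.5 and 21.9 CPM in the WT libraries, 26.8 and 19.1 in those of line 1, and 3.15 and 2.26 in those of line 2. Ctsk (1.29), described with the hydrolases below, Tfpi (1.33), an inhibitor of coagulation, and Patj (1.36), a cell polarity scaffold, completed the 5. Tfpi had 1.94 and 10.3 CPM in line 2 against 65.9 and 92.5 in WT, and Patj was below WT in both lines, with 15.1 and 10.1 CPM in line 1 and 4.12 and 1.97 in line 2 against 37.1 and 36.2.

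**Figure D3:**
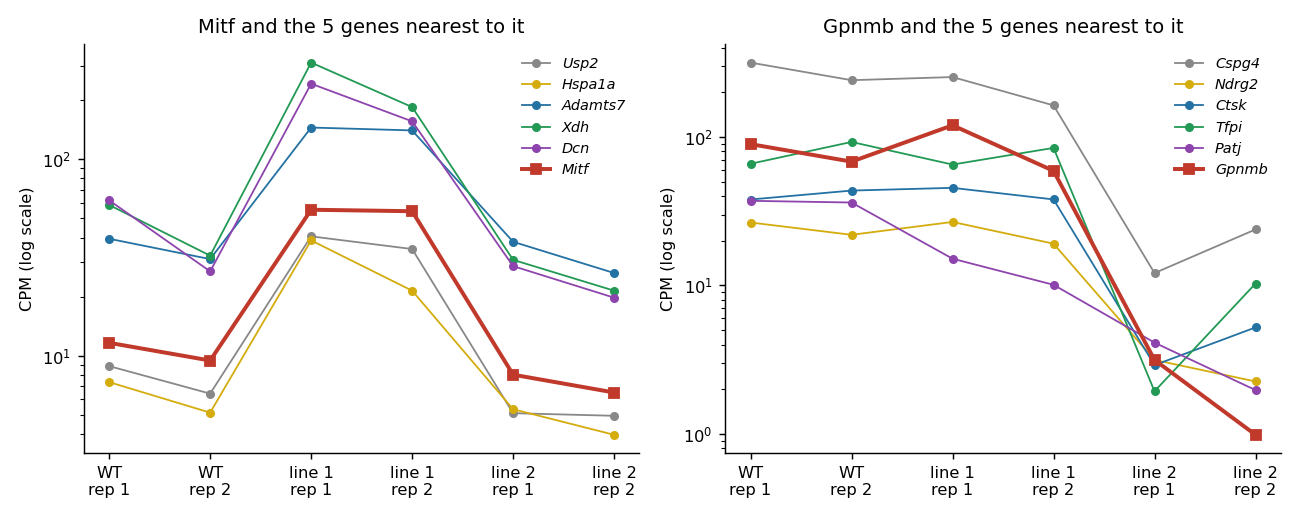
Level in CPM (log scale) of Mitf (left) and Gpnmb (right) with the 5 genes nearest to each, in the 6 libraries along the x axis. The genes near Mitf are highest in both line 1 libraries, and the genes near Gpnmb are lowest in both line 2 libraries.

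The pathway around these factors was read from 8 lists of 201 genes, of which 180 were tested. In line 1, 12 of the 180 (6.67%) were called, 7 higher and 5 lower, against 14.3% of all genes (6.75% higher and 7.55% lower). In line 2, 2 of the 180 (1.11%) were called, both lower, against 3.58% of all genes (1.73% higher and 1.85% lower). The median log2 fold change over the lists was 0.09 in line 1 and -0.03 in line 2, beside 0.005 in each line over all genes. Leaving out either WT library, replicate 1 or 2, brought the line 1 count to 4, and leaving out line 1 replicate 1 or 2 brought it to 19 or 21. For line 2 it became 0 when WT replicate 2 was omitted, 1 when WT replicate 1 or either line 2 library was, and 4 when line 1 replicate 2 was. Calls below are from edgeR's quasi-likelihood test with Benjamini-Hochberg adjustment.

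Of lysosomal hydrolases, the enzymes that digest cargo in the lysosome, 3 of 43 tested were called higher in line 1 and 2 lower. That was 11.6% of the list, beside 14.3% of all genes, with a median of 0.13 beside 0.005. Gla, alpha-galactosidase A, rose from 25.5 and 25.6 CPM in WT to 63.0 and 57.9 in line 1 (log2 1.24, SE 0.20, adjusted p = 0.0112). Ctsb, the protease cathepsin B, rose from 247 and 210 to 408 and 357 CPM (0.74, adjusted p = 0.02). Galns, the sulfatase N-acetylgalactosamine-6-sulfatase, rose from 42.9 and 43.4 to 79.2 and 63.7 CPM (0.72, adjusted p = 0.0288) and is named outside the rule, after its values were seen. Ctsh, cathepsin H, was nearly lost in line 1. It fell from 41.9 and 58.1 CPM in WT to 3.51 and 1.77 (log2 -4.35, SE 0.33, adjusted p = 0.000983), with 68.8 and 66.8 in line 2. Gm2a, the activator that presents GM2 ganglioside to its hydrolase, fell from 61.4 and 58.6 to 34.1 and 25.2 CPM (-1.03, adjusted p = 0.0155). Of these 5, only the call on Ctsh held when WT replicate 1 or WT replicate 2 was left out.

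In line 2, 1 of the 43 hydrolases was called (2.33%, beside 3.58% of all genes). Ctsk, cathepsin K, the collagen-degrading protease that MiT factors switch on in osteoclasts, stood at 37.9 and 43.5 CPM in WT and 45.4 and 37.9 in line 1. It fell to 2.91 and 5.22 CPM in line 2 (log2 -3.26, SE 0.29, adjusted p = 0.00719). Both line 2 libraries lay far below the other 4, as for Gpnmb. The call was lost without WT replicate 2, at -3.16. Acp5, the osteoclast acid phosphatase TRAP, was near 0 in all libraries, and the osteoclast fusion gene Dcstamp was at 0.

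Membrane proteins of the lysosome included 1 of 22 higher and 1 lower in line 1 (9.09% called, beside 14.3% of all genes). Laptm4b, a lysosomal transmembrane protein, rose from 42.4 and 36.5 to 78.9 and 66.5 CPM (0.88, adjusted p = 0.0165), a call lost without either WT library. Cln3, the protein mutated in juvenile Batten disease, fell from 22.2 and 16.0 to 4.60 and 4.64 CPM (-2.03, SE 0.29, adjusted p = 0.00724), with 8.24 and 6.20 in line 2 (-1.41, adjusted p = 0.0527). In line 2 edgeR called 0 of 22, beside 3.58% of all genes. There 1 had an unadjusted p under 0.05, and DESeq2 called 1 lower. The calcium channel gene Mcoln1 was called in neither line.

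Among 19 tested subunits of the V-ATPase, the proton pump that acidifies lysosomes, edgeR called 0 in line 1, beside 14.3% of all genes. There 2 had an unadjusted p under 0.05, and DESeq2 called 1 lower. Line 2 had 1 called lower (5.26%, beside 1.85% of all genes called lower). Atp6v0e2 fell from 17.7 and 12.0 CPM in WT to 1.45 and 0.987 in line 2 (log2 -3.62, SE 0.55, adjusted p = 0.0265), a call lost without either WT or either line 2 library. Its line 1 level was 2.43 and 6.42 CPM (-1.64, adjusted p = 0.0639), so both lines lay below WT.

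Of 32 autophagy genes edgeR called 0 in either line, beside 14.3% of all genes in line 1 and 3.58% in line 2. An unadjusted p under 0.05 was reached by 5 in line 1 and 1 in line 2, and DESeq2 called 0 in both. The list medians were 0.08 and 0.01. The cargo receptor gene Sqstm1, a textbook TFEB target, was among the uncalled.

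Genes that control the factors through mTORC1 and folliculin had 2 of 32 higher in line 1 (6.25%, beside 6.75% of all genes called higher). Fnip1, the partner of folliculin, rose from 115 and 107 to 152 and 156 CPM (0.47, adjusted p = 0.0405). This call was lost in DESeq2, with no filter, in a fit of the 2 groups only, and on leaving out any single library except line 1 replicate 1. Ppp3cc, a catalytic subunit of calcineurin, the phosphatase that releases TFEB from the cytoplasm, rose from 14.1 and 13.4 to 31.4 and 43.5 CPM (1.45, SE 0.29, adjusted p = 0.0228). The call was lost without either WT library and without line 1 replicate 2. In line 2 edgeR called 0 of 32, beside 3.58% of all genes. There 1 had an unadjusted p under 0.05, and DESeq2 called 0. Rragd, the Rag GTPase gene that MiT factors are known to induce, was low in all groups, with 2.27 and 1.60 CPM in the WT libraries, 3.78 and 1.23 in those of line 1, and 0.727 and 0.423 in those of line 2 (line 2 -1.76, adjusted p = 0.365).

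Pigment cell genes were mostly too low to test, with 5 of 18 passing the filter. Pax3, a transcription factor that activates Mitf in melanoblasts, rose from 39.9 and 40.3 CPM in WT to 114 and 77.8 in line 1 (log2 1.25, SE 0.20, adjusted p = 0.0111). It stood at 55.0 and 54.3 CPM in line 2 (0.45, adjusted p = 0.398). The line 1 call was lost without either WT library. In line 2 edgeR called 0 of 5, beside 3.58% of all genes. There none of the 5 had an unadjusted p under 0.05, and DESeq2 called 0. Pmel, the melanosome fibril protein and closest paralog of Gpnmb, stood at 9.60 and 6.72 CPM in the WT libraries, 8.38 and 5.46 in those of line 1, and 7.51 and 6.20 in those of line 2, with overlapping groups.

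Of 8 genes for proteins reported to act with GPNMB, 1 was called in line 1 (12.5%, beside 14.3% of all genes). Egfr, the EGF receptor, fell from 223 and 231 CPM to 88.9 and 90.5 (log2 -1.34, SE 0.10, adjusted p = 0.00102), with 283 and 281 in line 2. In line 2 edgeR called 0 of the 8, beside 3.58% of all genes. There 1 had an unadjusted p under 0.05, and DESeq2 called 0. Of 19 other factors that bind CACGTG, 1 was called in line 1 (5.26%, beside 14.3% of all genes), namely Mycl, the L-Myc gene. It fell from 22.7 and 28.0 CPM to 2.43 and 0.819 (-4.13, SE 0.47, adjusted p = 0.00316), with 13.3 and 19.0 in line 2. In line 2 edgeR called 0 of the 19, beside 3.58% of all genes. There 2 had an unadjusted p under 0.05, and DESeq2 called 0.

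**Figure D4:**
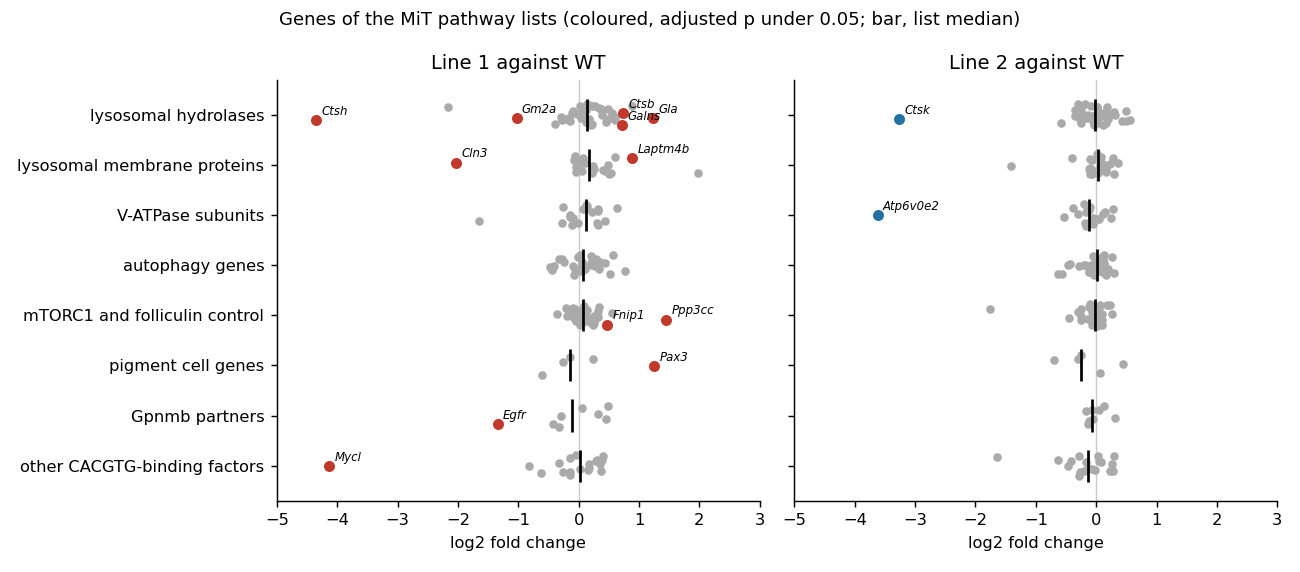
Log2 fold change against WT (x axis) of each tested gene of the 8 pathway lists (rows) in line 1 (left) and line 2 (right), with genes at an adjusted p under 0.05 coloured and named and the list median as a bar. The medians lie between -0.24 and 0.17, and called genes lie on both sides of 0 in line 1 and only below 0 in line 2 (Ctsk and Atp6v0e2).

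The CACGTG core that MiT factors bind was searched in the promoters of these lists in the same RefSeq windows. Of the 155 list genes with a window, 42 (27.1%) held CACGTG, beside 11.8% of the 9819 tested genes with a window. The share was 32.4% for hydrolases (11 of 34), 29.4% for membrane proteins (5 of 17), 25.0% for V-ATPase subunits (4 of 16) and 23.1% for autophagy genes (6 of 26). It was highest, at 35.3% (6 of 17), for the other CACGTG-binding factors, which are no lysosome genes, then 25.0% for pigment cell genes (3 of 12), 22.2% for mTORC1 and folliculin control (6 of 27) and 16.7% for Gpnmb partners (1 of 6). For pigment cell genes CATGTG was found in 58.3% (7 of 12), beside 9.98% of tested genes and 15.9% of all 27025 genes with a window. Only 5 of the 18 pigment cell genes were tested. Of the 12 list genes called in line 1, 6 had a window, and 3 of these held CACGTG. The called genes with a match were Gla and Fnip1, which rose in line 1, and Cln3, which fell. Their E-boxes are printed as 30 bases of the gene's strand, with the core in capitals and the position of its first base from the start.
Gla at -227: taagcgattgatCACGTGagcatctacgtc
Gla at -194: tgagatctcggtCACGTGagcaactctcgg
Cln3 at -149: gcaaccctcaagCACGTGatggaaggctca
Cln3 at -121: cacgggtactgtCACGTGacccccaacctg
Fnip1 at -75: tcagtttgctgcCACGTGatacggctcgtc
These stretches lie at chrX:134601215-134601244, chrX:134601182-134601211, chr7:126583368-126583397, chr7:126583340-126583369 and chr11:54438092-54438121. The 2 list genes called in line 2, Ctsk and Atp6v0e2, had a window and no match.

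Mitf, Tfec and Gpnmb all lie on chromosome 6, so the other genes of that chromosome were read beside them, a comparison chosen after the data were seen. Of 615 tested genes there, 14.5% were called in line 1 and 4.39% in line 2, beside 14.3% and 3.58% of all genes. Their medians were -0.05 and -0.02, beside 0.005 in each line over all genes. Within 1 Mb of the Gpnmb start, 16 other genes were tested, and their median was -0.29 in line 1 and -0.10 in line 2. The nearest on the distal side, Malsu1 at 37.3 kb and Igf2bp3 at 48.7 kb, had line 2 log2 fold changes of -0.09 and 0.59. On the proximal side, Tmem176a and Tmem176b, at -195.0 and -202.7 kb, stood at 0.83 and 0.65 in line 2, and genes farther out were mostly below 0, among them Krba1 (-1.51, adjusted p = 0.0654), Repin1 (-0.84), Lrrc61 (-0.71) and Zfp775 (-0.69). In line 1, edgeR called 4 of the 16: Sspo (3.77, adjusted p = 0.0193) and Zfp862-ps (1.147, adjusted p = 0.02) higher, and Krba1 (-1.56, adjusted p = 0.026) and Tmem176b (-1.75, adjusted p = 0.0201) lower. In line 2 it called 1, Atp6v0e2, at -498.9 kb from the Gpnmb start. With 16 genes, these counts are few to set beside the 14.3% and 3.58% of all genes called. Within 1 Mb of the Mitf start 4 genes were tested, all on the proximal side, from -696.1 kb (Eogt) to -596.3 kb (Arl6ip5). No nearer gene and no gene on the distal side was tested. Their line 1 values ran from -0.82 (Eogt) to -0.01 (Uba3), below 0 where Mitf was at 2.39.

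Tfe3 is the X-linked member, and reads over bases that differ between the parental strains were counted per allele. The labels do not say which parental X is inactive, and the mus allele was the low one for monoallelic genes. Tfe3 had 134 cas and 3 mus reads in WT replicate 1, and 186 and 6.5 in WT replicate 2. In line 1 it had 116 and 1.5, and 229 and 3.5. In line 2 it had 126 and 2, and 211 and 6.5. The mus share was 2.19% and 3.38% in the WT libraries, 1.28% and 1.51% in those of line 1, and 1.56% and 2.99% in those of line 2. With whole reads, the exact (Clopper-Pearson) 95% interval in WT replicate 1 was 0.454% to 6.27%, and the intervals of all 6 libraries overlapped.

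The mean mus share was 2.78% ± 0.839 for WT, 1.39% ± 0.162 for line 1 and 2.28% ± 1.01 for line 2 (SD, n = 2 each). The difference from WT was -1.39 percentage points in line 1 (exact two-sided permutation p = 0.333) and -0.51 in line 2 (exact p = 0.667), where 0.333 is the smallest p that 2 against 2 libraries allow. With so few libraries no difference could pass, whatever its size. Both lines had a mean mus share below that of WT, and the upper ends of the exact intervals in the 4 deletion libraries ran from 3.73% to 5.92%. The authors class Tfe3 as Monoallelic in each of their 4 class columns. Among 205 X-linked genes with allele reads, 186 carried that class and 19 the class Biallelic. The median mus share of the monoallelic genes was 0% to 1.25% over the libraries and that of the biallelic genes 33.9% to 42.9%. Tfe3 lay with the former, to which it belongs itself. The authors give the classes with these same allele reads, so its place there is no separate support.

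**Figure D5:**
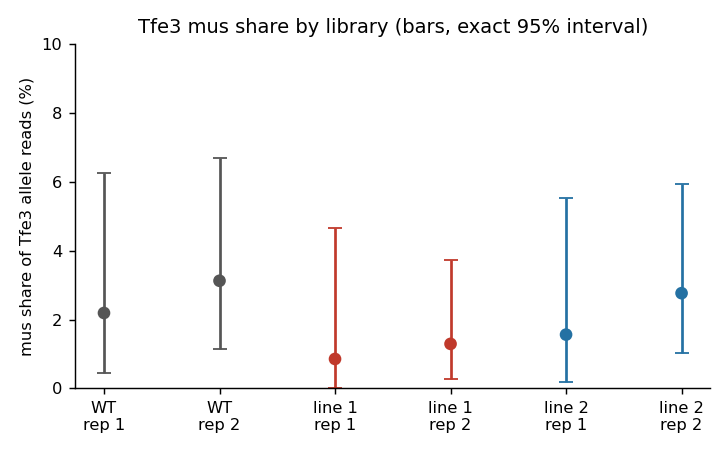
Share of Tfe3 allele reads from the mus allele in each library, in percent of whole reads (y axis), with exact 95% intervals as bars. All 6 points lie below 4% and all intervals overlap.

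Other X-linked genes of the pathway lists with allele reads were Monoallelic as well. The V-ATPase accessory subunit gene Atp6ap2 had mean mus shares of 10.8%, 9.44% and 4.73% for WT, line 1 and line 2. The iduronate sulfatase gene Ids had 3.28%, 0.696% and 1.98%, and the lysosomal membrane gene Lamp2 0.984%, 2.32% and 1.72%. Wdr45, an autophagy gene, had no mus read above the value of 0.5 that stands for 0.

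The authors' lists of classified X-linked sites held 3 sites inside Tfe3, all Monoallelic. The accessible site is chrX:7765830-7766051, 3.2 kb into the gene, and the sites of BRG1, a SWI/SNF chromatin remodeling ATPase, are chrX:7766150-7766416 and chrX:7772620-7772880, at 3.5 and 10.0 kb. All sites within 100 kb of the Tfe3 start were Monoallelic. The nearest sites of the class XiRestored, which the name ties to the inactive X, lay 4166 kb away for BRG1 and 5010.7 kb away for accessibility. Most sites in the whole lists were Monoallelic too. Accessible sites numbered 356 Monoallelic, 27 Biallelic and 37 XiRestored, and BRG1 sites 887, 60 and 189.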

How the data were processed

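RNA was sequenced from 6 libraries of 31 samples in the series, and the others were not analysed here beyond the lists of sites. Exon values are expected counts per RefSeq transcript that the authors made with HOMER on mm10, without normalization per the file headers. The deposited allele values are expected counts too, in which 0.5 stands for 0, and a deposited mus fraction is mus over mus plus cas reads. Tools named in the submitters' processing notes include TopHat2, HOMER, Trim Galore 0.4.1 and bedtools 2.25.0. The strand setting of the counting and the rule behind the classes are not given in these sources. Site lists, as deposited by the authors, hold coordinates without a score.

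The test had been planned for counts, so expected counts were rounded, 0.5 upwards. All 6 libraries entered 1 edgeR 4.0.16 fit (R 4.3.3): TMM scaling, filterByExpr, group means, the quasi-likelihood test, and Benjamini-Hochberg adjusted p under 0.05 over 12910 genes. Residual degrees of freedom were 3 and the common biological coefficient of variation 0.17. Alternatives were DESeq2 1.42.0, its size factors, no filter, the longest transcript, the compared groups only, a replicate block and leaving out each library.

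Named list genes are up to 4 called genes per list and line with the smallest adjusted p. Genes like Mitf or Gpnmb are the 5 nearest whose mean log2 CPM is 3 or more. Predicted genes (Gm, Rik and LOC symbols), Mir and Snor genes and ribosomal protein genes were left out before ranking. Members and lists were chosen with earlier results of these data known. Promoter searches, Mitf transcripts and neighbours were added after the data were seen. Allele shares were compared by exact permutation (scipy 1.17.1).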

Additional observations from a re-analysis of the deposited data

Results flagged for a closer look

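These members and list genes differed between the 2 deletion lines, by the contrast of line 2 minus line 1 in edgeR's quasi-likelihood test with Benjamini-Hochberg adjustment, in which 12.6% of all genes were called (6.87% higher and 5.76% lower). Mitf was lower in line 2 (log2 difference -2.935, SE 0.21) and Gpnmb by more (-5.57, SE 0.58). For this pair the difference is a description, because they were picked for their change. Gpnmb stood at -6.45 without line 2 replicate 1 and at -4.82 without line 2 replicate 2.

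Of the 180 list genes tested, 18 (10.0%) were called between the lines, 5 higher and 13 lower in line 2, beside 12.6% of all genes. Only those already named for a call against WT are given here. That call used the same libraries, so the adjusted p values below are no separate support. Lower in line 2 than in line 1 were the hydrolase genes Ctsk (-3.29, adjusted p = 0.00162), Gla (-1.492, adjusted p = 0.00638), Ctsb (-0.786, adjusted p = 0.0175) and Galns (-0.636, adjusted p = 0.046). So were Ppp3cc (-1.271, adjusted p = 0.0354), Pax3 (-0.801, adjusted p = 0.0482) and Fnip1 (-0.539, adjusted p = 0.0292). Higher in line 2 were Ctsh (4.784, adjusted p = 0.000735), Mycl (3.494, adjusted p = 0.00633), Egfr (1.652, adjusted p = 0.000603) and Gm2a (1.05, adjusted p = 0.0153). For Ctsk the low group was line 2, and for the other named list genes line 1 was the group that had passed the test against WT.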

How the results depend on the processing

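With single libraries left out, genes called numbered 718 to 2361 in line 1 (1846 with all libraries), 23 to 783 in line 2 (462) and 600 to 1991 between the lines (1630). Line 1 gave 775 without WT replicate 1 and 718 without WT replicate 2. Line 2 gave 23 and 46 when its own replicate 2 or 1 was left out, and 783 when line 1 replicate 1 was. Pathway list genes called ranged from 4 to 21 in line 1 and from 0 to 4 in line 2. A fit of the 2 compared groups gave 790 genes and 5 list genes in line 2, and no filter on low counts gave 948 genes there.

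With replicate number as a block, 4182, 1568 and 3506 genes were called in line 1, line 2 and between the lines, and 55 and 9 list genes in line 1 and line 2. Lists without a call then had some: 6 autophagy genes were higher and 3 lower in line 1 and 1 was lower in line 2. Of the Gpnmb partners, 3 were higher and 4 lower in line 1. The numbers mark no stated batch, and the first library of each group was also the shallower. The log2 difference of replicate 1 from replicate 2, taken over genes, had Pearson correlations of 0.54, 0.594 and 0.529 between pairs of groups.

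The line 2 difference in Tfe3 mus share turned positive, to 0.086 percentage points without WT replicate 2 and 0.205 without line 2 replicate 1, within a leave-one-out range of -1.22 to 0.205, and in line 1 it ranged from -1.99 to -0.799. For single genes, 417 values kept direction and side of the threshold, 33 lost it, 12 gained it, 4 (Gpnmb) moved and 14 changed sign, all with 1 library left out. Over those settings the log2 value ran from -0.56 to 0.15 for Tfeb, -0.075 to 0.142 for Tfe3, -0.42 to 0.61 for Gpnmb and -0.113 to 0.152 for Ctsk in line 1. It ran from -0.155 to 0.077 for Ctsb, -0.145 to 0.014 for Fnip1, -0.047 to 0.088 for Gm2a and -0.214 to 0.454 for Ppp3cc in line 2, and from -0.207 to 0.006 for Tfe3 between the lines. The cause was not tested. Depth limits Tfec, Gpnmb in line 2 and the Tfe3 mus allele, which rest on few reads.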
